A study of Homo sapiens with 82 samples.

Results

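RNA polymerase II (RNAP2) occupancy after 24 h of rosiglitazone was compared with RNAP2 occupancy under DMSO in HT29, a colorectal adenocarcinoma cell line, using the 4 ChIP-seq peak sets that the comparison requires out of the 82 samples of the series. Both groups held 2 replicates made with the same antibody against RNAP2. Rosiglitazone, a thiazolidinedione agonist of PPARG, was given at 10 µM, and DMSO was the carrier alone, for which the labels give no harvest time. Other libraries of the same cells were used to describe the RNAP2 sites: H3K27ac in the carrier and at 24 and 48 h of rosiglitazone, PPARG after 2 and 48 h of rosiglitazone, JunD under DMSO, and RNAP2 after 48 h of rosiglitazone and after 24 and 48 h of the LXR agonist GW3965 at 10 µM, with 2 replicates each, and 4 RNA-seq libraries per group at 24 h. The RNA-seq groups in the fit were DMSO and, at 10 µM, rosiglitazone, GW3965 and T0901317, a different LXR agonist. HT29 is a single established line grown in culture, and for ChIP-seq nothing states whether replicates came from separate cultures, so that their spread may be technical, while the RNA-seq treatments were each done 4 times.

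RNAP2 transcribes protein-coding genes. It gathers at promoters, where it can pause, spreads over gene bodies while it elongates, and is also found at active enhancers. PPARG is a nuclear receptor that binds DNA as a heterodimer with RXR and activates genes of lipid handling when a ligand such as rosiglitazone is bound. In colonic epithelium it is associated with differentiation and fatty acid use. Acetylation of lysine 27 of histone H3 (H3K27ac) marks active promoters and enhancers, so that the marks overlapped by an RNAP2 site describe the kind of chromatin the polymerase sits on. RNAP2 was profiled in the study to ask whether receptor binding near responsive promoters was functional, and here the rosiglitazone and DMSO libraries are compared with each other.

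The DMSO libraries held 30638 and 35010 peaks, and the rosiglitazone libraries held 35934 and 30926. Peak number therefore did not separate the groups. Peak width set 1 library apart: the median peak was 1228 and 1046 bp wide under DMSO and 965 bp in rosiglitazone replicate 1, against 1522 bp in rosiglitazone replicate 2, which also held 435 peaks wider than 10 kb against 93 to 139 in the other 3. Its peaks covered 67.0 Mb, compared with 48.7 to 48.9 Mb in the others. Over the 18787 sites found in every library, the log2 peak scores of rosiglitazone replicate 1 correlated more closely with DMSO replicates 2 and 1 (r = 0.801 and 0.771) than with rosiglitazone replicate 2 (r = 0.698). The 2 DMSO libraries correlated at r = 0.870. These sites share their libraries and the correlations are a description only. Counts of sites, overlap shares, score and width changes are given below with both rosiglitazone libraries and, where marked, with only 1 of them; for some of the shares this was added after seeing the data. The files list no read depth for the ChIP-seq libraries, so the depth behind a peak is unknown. The file headers show the same input library behind the RNAP2 and H3K27ac libraries of DMSO, and another behind those of rosiglitazone at 24 h. The labels list 2 rosiglitazone inputs, and the headers give a separate one for 48 h.

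**Figure D1:**
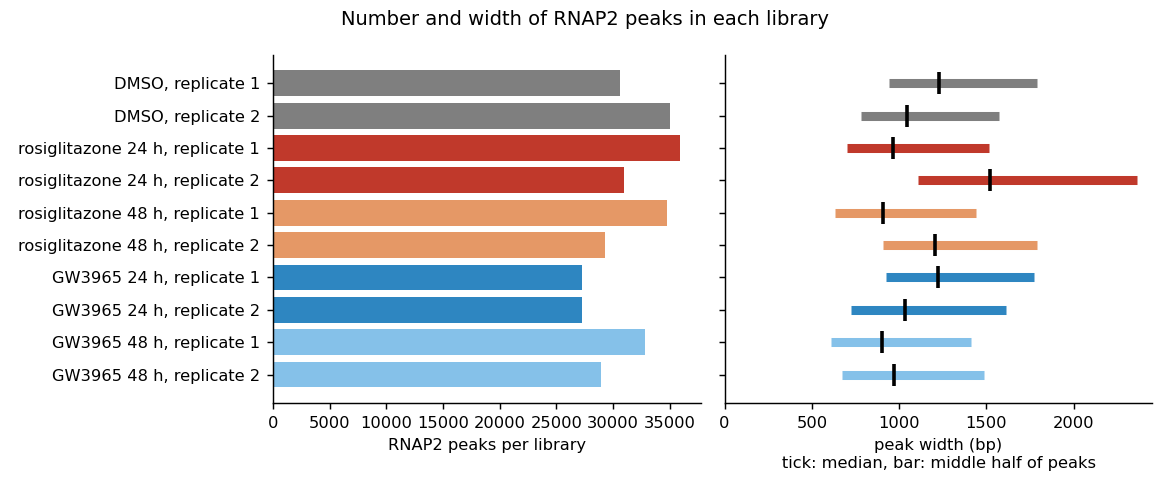
Number of RNAP2 peaks (left) and peak width in bp (right; tick for the median, bar from the 25th to the 75th percentile) in each of the 10 RNAP2 libraries. Peak numbers overlap between DMSO and rosiglitazone 24 h, and rosiglitazone 24 h replicate 2, with a median of 1522 bp, has the widest peaks of all libraries.

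A site was defined as the merged span of overlapping peaks from both replicates of a group. By this definition RNAP2 occupied 26581 sites under DMSO and 23884 sites after 24 h of rosiglitazone and 30246 in either. Of these, 5047 were gained (present with rosiglitazone and not under DMSO; 16.7% of all sites and 21.1% of the rosiglitazone sites), 6412 were lost (21.2% of all sites and 24.1% of the DMSO sites) and 18787 were shared. Losses thus outnumbered gains. This order did not hold under every way of counting: when only sites with no peak at all in either library of the other group were kept, 2529 were gained and 1822 were lost. Of the remaining gained sites, 2486 had a peak in 1 of the 2 DMSO libraries and 32 had peaks in both that did not overlap each other, and of the remaining lost sites 4587 had a peak in 1 rosiglitazone library and 3 in both. With rosiglitazone replicate 1 as the only treated library the counts became 11759 gained and 3633 lost, and with replicate 2 alone they became 10291 and 4707. Here every peak of the single treated library was a site, while a DMSO site still needed both replicates. This raises gained and lowers lost counts by definition, so these counts cannot decide the order. Without DMSO replicate 1 or 2 there were 3562 or 3989 gained and 11406 or 8685 lost sites. No test was applied to these counts, because an exact permutation of 2 against 2 libraries cannot give a p below 0.33.

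Gained and lost sites were weaker than shared ones. The median of the lower replicate score, where the score is 10 times −log10 of the peak caller's p and starts at 100, was 143.24 at gained, 145.93 at lost and 248.83 at shared sites. The median width was 1218 bp at gained, 1146 bp at lost and 1896 bp at shared sites, whose spans merge peaks of 4 libraries and not of 2. Gained sites were often near existing ones: 2153 of 5047 (42.7%) lay within 10 kb of a DMSO site, compared with 35.6% of lost sites within 10 kb of a rosiglitazone site. The share of sites that were gained ran from 9.36% on chromosome 19 to 23.0% on chromosome 4 and 23.5% on chromosome 18, and the share that were lost ran from 15.5% on chromosome X to 29.01% on chromosome 8.

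Gained and lost RNAP2 sites lay on different chromatin. Sites of H3K27ac under DMSO overlapped 11.5% of gained RNAP2 sites (95% Wilson interval 10.6 to 12.4%), 52.4% of lost sites (51.2 to 53.6%) and 63.3% of shared sites. After 24 h of rosiglitazone H3K27ac overlapped 29.6% of gained sites (28.3 to 30.9%), 48.1% of lost sites and 72.8% of shared sites. Most lost sites with H3K27ac therefore had the mark in both conditions (42.7% of lost sites), whereas 18.6% of gained sites (939) lay on H3K27ac sites found with rosiglitazone and not with DMSO, compared with 5.4% of lost and 12.003% of shared sites. The opposite class, H3K27ac found under DMSO and not with rosiglitazone, held 24 gained sites (0.476%) and 622 lost sites (9.70%). For RNAP2 sites of rosiglitazone replicate 1 alone, H3K27ac only with rosiglitazone lay at 12.07% of gained, 7.38% of lost and 10.73% of shared sites. With replicate 2 alone it lay at 16.4%, 2.996% and 11.97%. At sites of 1 to 2 kb these shares were 7.71%, 7.24% and 12.45% for replicate 1, and 23.3%, 2.59% and 19.1% for replicate 2. In that width class gained sites exceeded shared ones, and clearly exceeded lost ones, with replicate 2 only. RNAP2 and H3K27ac of the same treatment and time share an input library, and its part in these overlaps was not tested. The intervals cover the counting of sites and not the spread between replicates, and neighbouring sites are not independent.

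PPARG sites from either time overlapped 1173 gained RNAP2 sites (23.2%; 22.1 to 24.4%), 1096 lost sites (17.1%; 16.2 to 18.0%) and 39.9% of shared sites. The difference between gained and lost was larger for PPARG sites present at both 2 and 48 h, which overlapped 14.4% of gained and 5.7% of lost sites. The PPARG order of gained above lost depended on the libraries: it was 16.4% against 17.2% without rosiglitazone replicate 2, and 16.6% against 15.4% without replicate 1. Shares with 1 treated library count every peak of that library as a site. For H3K27ac the corresponding shares, of gained sites with the rosiglitazone mark and lost sites with the DMSO mark, were 25.6% and 42.7% without replicate 2 and 26.7% and 57.4% without replicate 1. JunD, an AP-1 subunit measured under DMSO only, overlapped 13.0% of gained, 5.9% of lost and 35.6% of shared sites. In all, 58.8% of gained RNAP2 sites had neither H3K27ac, in DMSO or at 24 h, nor PPARG, compared with 35.8% of lost and 16.6% of shared sites.

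**Figure D2:**
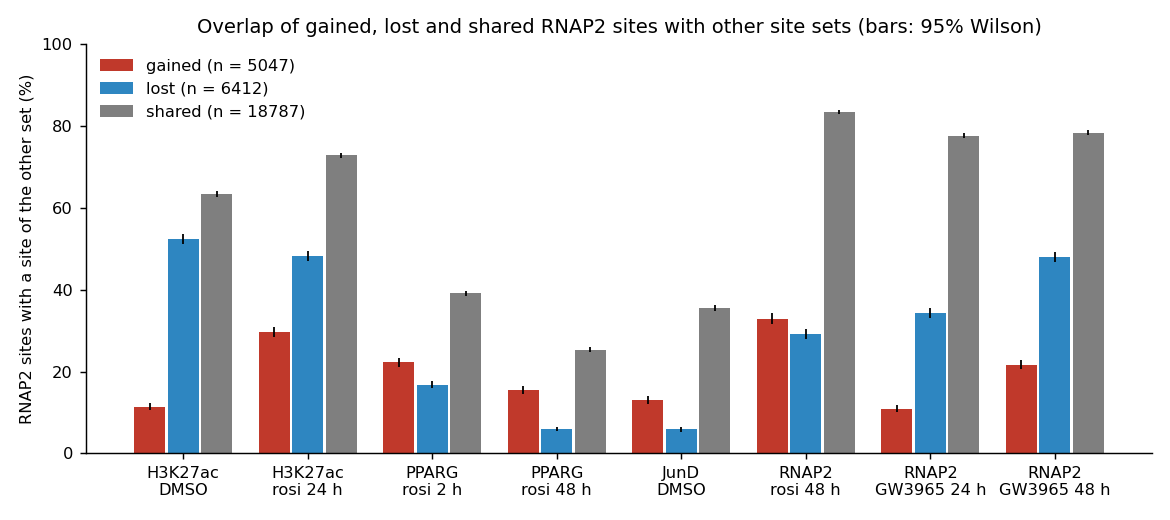
Share of gained, lost and shared RNAP2 sites (%) that overlap a site of each other set by at least 1 bp, with 95% Wilson intervals as bars. H3K27ac of DMSO overlaps 52.4% of lost and 11.5% of gained sites, whereas PPARG at 48 h overlaps 15.4% of gained and 6.0% of lost sites.

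Because a wider site has more room to overlap, the shares were repeated in classes of width. Among sites of 1 to 2 kb (2531 gained, 3208 lost and 9273 shared), H3K27ac of rosiglitazone overlapped 40.5% of gained sites and H3K27ac of DMSO overlapped 13.6% of gained, 65.5% of lost and 50.3% of shared sites. PPARG overlapped 28.7% of gained, 17.0% of lost and 45.3% of shared sites in this class. Without rosiglitazone replicate 2 the share with PPARG in this class was 9.44% of gained and 17.9% of lost sites, and with replicate 2 alone it was 19.9% and 15.03%, so that the order depended on the library. Of the 1380 gained sites under 1 kb, 13.3% overlapped H3K27ac of rosiglitazone and 25.1% overlapped PPARG, against 18.5% and 33.8% of shared sites of that width. The 1136 gained sites over 2 kb overlapped H3K27ac of rosiglitazone in 25% and PPARG in 8.89%, against 84.6% and 34.8% of the shared sites over 2 kb, and 50.6% of them held an RNAP2 site again at 48 h. Taking the 365 gained sites over 2 kb by the peaks of rosiglitazone replicate 1, the narrower library, gave 18.6% with H3K27ac, 5.48% with PPARG and 64.7% with an RNAP2 site at 48 h. Lost sites over 2 kb (919) were different, with H3K27ac of DMSO at 81.8%. Where the wide gained sites lie relative to genes was not analysed here, since no annotation of the genome build of the files (hg19) was used, and sites are named by position only.

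Gained sites with a PPARG site carried new H3K27ac more often than those without. Of the 1173 gained sites with PPARG, 51.9% overlapped H3K27ac of rosiglitazone, against 22.8% of the 3874 gained sites without PPARG. New H3K27ac, meaning overlap with an H3K27ac site of rosiglitazone and with none of DMSO, was found at 40.6% and 11.95%. A site needs both replicates, so a peak in 1 DMSO library could still be present. The share with an H3K27ac site under DMSO was nearly the same with and without PPARG (11.6% and 11.4%). H3K27ac peaks of DMSO replicate 1 lay at 12.4% and 11.8%, and those of replicate 2 at 20.7% and 16.9%. The H3K27ac libraries held 23015 and 27701 peaks under DMSO and 26705 and 27633 with rosiglitazone. The part of these peak numbers in new H3K27ac was not tested. With rosiglitazone replicate 1 alone new H3K27ac was found at 32.7% and 8.03% of gained sites with and without PPARG, and with replicate 2 alone at 39.0% and 11.9%. Shared sites had the same order, with 19.0% and 6.06% for replicate 1 alone and 19.8% and 7.11% for replicate 2 alone. So did lost sites, with 14.9% and 5.82%, and 7.32% and 2.21%. The difference was therefore not particular to gained sites. At the 725 gained sites with PPARG at both times, 59.4% had H3K27ac of rosiglitazone and 48.1% had new H3K27ac. Seen from the other side, RNAP2 gains were a small part of PPARG binding: of 14249 PPARG sites at 2 h, 8.01% lay at a gained, 7.66% at a lost and 56.3% at a shared RNAP2 site, and of 8317 PPARG sites at 48 h the shares were 9.38%, 4.61% and 59.9%. Of the 5965 H3K27ac sites found with rosiglitazone and not with DMSO, 14.5% lay at a gained and 5.35% at a lost RNAP2 site, and of the 2374 H3K27ac sites found with DMSO and not with rosiglitazone, 0.842% and 24.9% did.

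Of the 4 strongest gained sites with PPARG at both times, 2 had H3K27ac peaks with rosiglitazone and none under DMSO. At chr2:191708297-191709731 no peak was called in either DMSO library, and the rosiglitazone scores were 733.86 and 548.40. H3K27ac was likewise absent under DMSO and scored 1217.12 and 482.18 after rosiglitazone, and RNAP2 persisted at 48 h with scores of 647.47 and 294.01. At chr18:26768287-26769454 the RNAP2 score was 114.44 in DMSO replicate 2, with no peak in replicate 1, and was 571.54 and 732.08 with rosiglitazone. Here too H3K27ac went from no peak to scores of 711.79 and 666.82. At chr1:200311373-200312905, which held PPARG peaks of 3100 and 2654.75 at 2 h, the RNAP2 score was 149.96 in 1 DMSO library and 658.78 and 630.23 with rosiglitazone. H3K27ac at that site scored 152.64 in 1 DMSO library and 902.42 and 600.19 with rosiglitazone. The site at chr10:22535200-22536447 had an RNAP2 score of 149.21 in 1 DMSO library and 546.06 and 680.51 with rosiglitazone. At 48 h of rosiglitazone only replicate 2 held a peak there (249.54), and GW3965 at 24 h gave 119.3 and 228.04. No H3K27ac peak was called at this site in any DMSO or rosiglitazone 24 h library.

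None of the 4 gained sites with the highest scores among those with no DMSO peak overlapped an H3K27ac or PPARG peak, although over all gained sites the share without either fell from 62.9% in the weakest to 53.6% in the strongest of 4 score classes. Scores saturate near 3100, which the site at chr21:36222079-36232243 reached in replicate 1 of either rosiglitazone time, with 3100 and 1219.63 at 24 h and 3112.45 and 1196.37 at 48 h. The site at chr2:173341463-173350807 scored 2030.69 and 1337.03 at 24 h and 776.90 and 363.91 at 48 h. At chr9:19112555-19115427 the scores were 1336.21 and 945.31 at 24 h and 1442.42 and 895.95 at 48 h, and after 24 h of GW3965 it had weak peaks of 108.26 and 148.94. The last, chr5:142605928-142610741, had 1085.39 and 1185.14 at the earlier and 1034.18 and 417.21 at the later time. All 4 were thus present in both libraries of both rosiglitazone times. The chromosome 21 site also had GW3965 peaks, of 211.05 in replicate 2 at 24 h and of 270 and 109.39 at 48 h. JunD peaks under DMSO scored 238.02 and 241.02 at that site. The chromosome 2 and chromosome 5 sites had no GW3965 peak.

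Of the 4 strongest lost sites with no rosiglitazone peak, 3 had H3K27ac peaks that were weaker or absent with rosiglitazone. At chr19:39656940-39658892 the DMSO scores were 395.86 and 560.61 for RNAP2 and 294.19 and 605.84 for H3K27ac, and rosiglitazone left neither with a peak after 24 h. At chr3:126470760-126473499 RNAP2 scored 563.29 and 623.20 under DMSO, while H3K27ac scored 920.22 and 1882.77 under DMSO and 305.16 and 128.61 with rosiglitazone. This loss was not seen at 48 h of rosiglitazone, where both libraries held an RNAP2 peak, with scores of 117.71 and 286.61. At chr3:184276572-184277837 RNAP2 scored 401.98 and 508.70 under DMSO, and H3K27ac went from 338.06 and 815.35 to a single peak of 174.44. The exception was chr17:6678402-6680475, with RNAP2 scores of 614.29 and 691.35 under DMSO and no peak in the 48 h, GW3965, H3K27ac, PPARG or JunD libraries.

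Presence at other times and with the other agonist was then examined. RNAP2 after 48 h of rosiglitazone had a site at 32.9% of gained, 29.2% of lost and 83.4% of shared sites, and 55.2% and 50.05% of gained sites had a peak in 1 or the other of the 48 h libraries. After 24 h of GW3965 RNAP2 had a site at 10.9% of gained, 34.2% of lost and 77.6% of shared sites. Gained sites were therefore found more often at 48 h of rosiglitazone than with GW3965 at 24 h, and lost sites less often, without a test of either difference. With rosiglitazone replicate 1 alone RNAP2 of 48 h was found at 26.0% of gained and 12.6% of lost sites, and with replicate 2 alone at 18.5% and 35.0%, so that the order of gained and lost, and for lost sites the order of 48 h and GW3965, rested on the library, whereas GW3965 at 24 h was found less often at gained than at lost sites in both (8.53% against 25.2%, and 7.86% against 33.5%). Among gained sites with no DMSO peak the shares were 24.0% and 3.44%. After 48 h of GW3965 the share of gained sites was higher, 21.6%, and that of lost sites was 48.0%. The GW3965 libraries held fewer peaks at 24 h than the rosiglitazone libraries, as the plot of peaks per library shows, and the part of this in the shares was not tested.

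Persistence rose with peak strength, and stronger sites were also wider. Gained sites were divided into 4 classes of nearly equal size by their lower replicate score. The median widths of these classes, from weakest to strongest, were 1086.5, 1153, 1219 and 1593.5 bp. By width, an RNAP2 site at 48 h was found at 14.6% of gained sites under 1 kb, 34.9% at 1 to 2 kb and 50.6% over 2 kb. Score and width were not separated here. From the weakest to the strongest class, the share with an RNAP2 site at 48 h of rosiglitazone was 17.7, 24.1, 32.2 and 57.6%, while the share with GW3965 at 24 h was 6.8, 9.1, 10.0 and 17.7%. H3K27ac of rosiglitazone differed less across the classes, from 26.8 to 34.8%, and PPARG went from 15.9 to 30.9%. The share at 48 h in the weakest and strongest classes was 11.8% and 49.7% with rosiglitazone replicate 1 alone, and 8.63% and 35.4% with replicate 2 alone. Lost sites behaved similarly for RNAP2 at 48 h of rosiglitazone (15.3 to 55.2%) but differed in GW3965 at 24 h, which had a site at 15.3% of the weakest and 64.1% of the strongest lost sites.

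**Figure D3:**
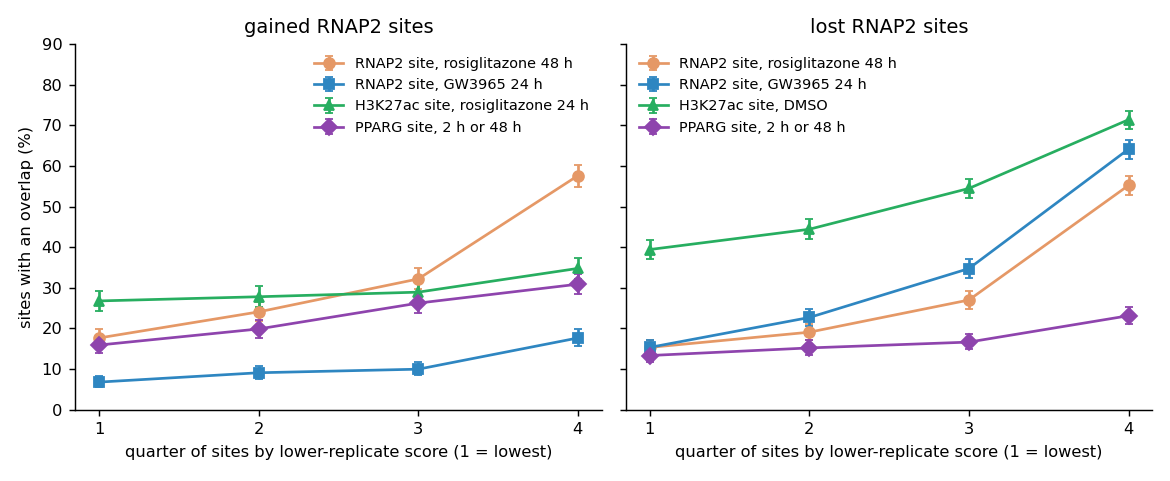
Share of gained (left) and lost (right) RNAP2 sites that overlap each other set (%), by class of the lower replicate score, from lowest (1) to highest (4), with 95% Wilson intervals as bars. In the strongest class of gained sites 57.6% had an RNAP2 site at 48 h of rosiglitazone and 17.7% with GW3965 at 24 h, against 55.2% and 64.1% of lost sites.

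At the 18787 shared sites the peak scores of the groups mostly overlapped. After setting the library medians equal, limma called 1 site higher with rosiglitazone (0.00532% of the sites) and 0 lower at an adjusted p under 0.05, and at an unadjusted p under 0.05 there were 1041 higher (5.54%) and 802 lower (4.27%). The called site, chr6:47243040-47255197, scored 152.98 and 178.71 under DMSO against 3100 and 3100 after 24 h of rosiglitazone, and 48 h gave 2764.68 and 1194.88. Its log2 change was 4.10 (SE 0.43; limma adjusted p = 0.0306), with both treated scores at the value near which scores saturate. The call was lost without centring (limma adjusted p = 0.543), with quantile scaling (0.313) and without DMSO replicate 1 (0.661) or replicate 2 (0.9999), while both treated scores lay above both DMSO scores. The next largest differences did not pass: chr2:173371442-173379404 scored 206.93 and 366.80 against 3100 and 3100 (limma adjusted p = 0.0649), and chr16:68872028-68874690 scored 105.12 and 135.10 against 1247.35 and 1213.63. In the other direction, chr11:129184794-129188484 scored 768.78 and 1100.20 under DMSO against 160.12 and 100.53 with rosiglitazone (limma adjusted p = 0.120), and its H3K27ac scored 774.10 and 1353.14 against 304.53 and 361.38. The site at chr21:42816199-42822627 scored 1388.76 and 1069.71 against 336.92 and 110.05. The remaining pair of largest falls, chr1:46652530-46665358 (2689.66 and 2774.05 against 1682.11 and 160.51) and chr8:134553267-134588694 (3100 and 3100 against 3100 and 140.66), rested on rosiglitazone replicate 2.

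Scores at shared sites were ordered by what H3K27ac did there. In the scores as deposited, both rosiglitazone scores exceeded both DMSO scores at 26.6% of all shared sites and lay below both at 12.4%. These shares carry the library offsets: the median shared-site score was 339.36 and 448.61 under DMSO and 450.02 and 403.57 with rosiglitazone. The log2 changes given here were taken after setting library medians equal, with a median of −0.009 over all shared sites. At the 2255 shared sites with H3K27ac found only with rosiglitazone the shares above and below DMSO were 48.3% and 5.23%, and the median log2 score change was 0.34. At the 466 shared sites with H3K27ac found only under DMSO they were 4.72% and 36.7%, with a median of −0.61. The order held in each treated library, with medians of 0.16 and −0.49 in rosiglitazone replicate 1 and 0.58 and −0.60 in replicate 2. Sites with PPARG at both times (4604) had a median of 0.19, and sites without PPARG (11284) had −0.08. In this case the difference came from 1 library, as the medians were 0.06 and 0.03 in rosiglitazone replicate 1 and 0.36 and −0.12 in replicate 2.

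**Figure D4:**
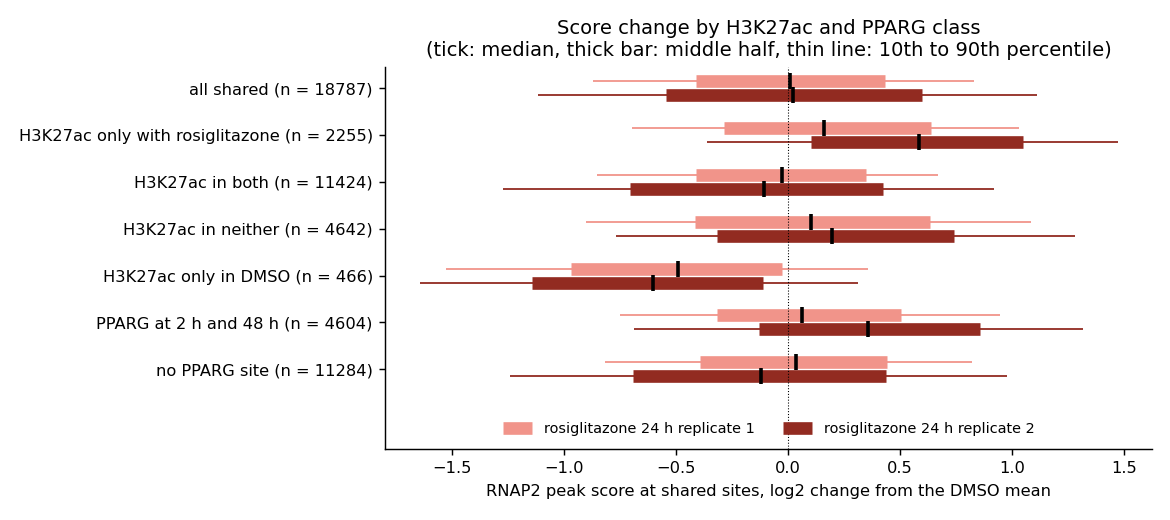
Log2 change of the RNAP2 peak score from the DMSO mean at shared sites, for each rosiglitazone 24 h library and each H3K27ac or PPARG class (tick for the median, thick bar from the 25th to the 75th percentile, thin line from the 10th to the 90th percentile). Sites with H3K27ac only with rosiglitazone have medians of 0.16 and 0.58 and sites with H3K27ac only in DMSO have −0.49 and −0.60, whereas the PPARG classes separate in replicate 2.

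Shared sites were wider, rather than narrower, with rosiglitazone in the deposited widths, but this too followed 1 library. A site was called widened when its mean summed peak width was at least 1.5-fold larger and both treated widths exceeded both DMSO widths. In total 1122 sites widened (5.97%) and 22 narrowed (0.117%). Median summed widths were 1396 and 1248 bp under DMSO and 1174 and 1866 bp with rosiglitazone, so that the treated libraries lay on either side of the DMSO pair. With widths divided by the library median, 699 sites widened (3.72%) and 195 narrowed (1.04%). With rosiglitazone replicate 1 as the only treated library 565 widened and 1844 narrowed, and with replicate 2 alone 5324 widened and 26 narrowed. In limma 0 sites were wider and 0 narrower at an adjusted p under 0.05 (smallest adjusted p 0.0929), with 782 wider (4.16%) and 344 narrower (1.83%) at an unadjusted p under 0.05.

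Among widened sites, H3K27ac of rosiglitazone was found at 59.4%, PPARG of 2 h at 31.5% and RNAP2 of 48 h rosiglitazone at 90.5%, against 72.8%, 39.1% and 83.4% of all shared sites. The most widened site, chr9:75771053-75789880, had summed peak widths of 1824 and 3118 bp under DMSO and 17830 and 18828 bp with rosiglitazone, a 7.42-fold difference. The site at chr10:127524151-127530181 had widths of 955 and 716 bp against 4986 and 6031 bp, and chr16:68831840-68838167 had 896 and 927 bp against 4477 and 6328 bp. At chr5:150401579-150409999 the widths were 1605 and 777 bp against 7456 and 8247 bp. The wider treated value belonged to rosiglitazone replicate 2 at all 4 sites. The most narrowed site, chr1:204041758-204044907, had widths of 3014 and 2631 bp against 730 and 867 bp, or 0.283-fold. Adjacent sites on chromosome 21 were both among the 4 most narrowed: chr21:42823146-42833780 had 10635 and 7907 bp against 4668 and 2033 bp, and chr21:42816199-42822627, also among the largest falls of score, had 6429 and 5013 bp against 4131 and 902 bp.

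Some gained sites lay in clusters, although most did not: of 4193 loci with a gained site, 460 held 2 or more. When sites of either group within 10 kb were joined, 139 of 20686 loci held 3 or more gained sites and contained 672 of them (13.3%), and 10 loci held 10 or more, up to 25 in 1 locus. Lost sites clustered less in number at this limit (483 sites, or 7.53%, in 137 loci of 3 or more). At 2 or more per locus the shares were closer, 26.0% of gained and 22.8% of lost sites. An expected amount of clustering was not computed. Of the 139 loci, 118 also held a DMSO site, as did 18192 of all 20686 loci. A PPARG site was held by 75 of the 139 (54.0%), compared with 76 of the 137 loci with 3 or more lost sites (55.5%) and 37.7% of all loci. These loci were also longer, with a median span of 36.7 kb for gained and 26.7 kb for lost clusters against 1.83 kb over all loci, which gives a PPARG site more room to fall in them. With 1 rosiglitazone library, every peak of which then counted as a site, 602 (replicate 1) or 362 (replicate 2) loci held 3 or more gained sites.

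The length covered by RNAP2 peaks in each locus took gained, lost, widened and narrowed peaks together. In limma 1259 loci (6.09%) were covered more and 959 (4.64%) less with rosiglitazone at an adjusted p under 0.05, and 10.3% and 6.57% at an unadjusted p under 0.05. Most of these calls were fixed by the definition of a site, as 1076 of the higher loci held sites of rosiglitazone only and 899 of the lower loci held sites of DMSO only. Among the 14490 loci with sites in both groups 183 were higher and 60 lower in that fit. When these loci were fitted alone, limma called 0 (1015 higher and 484 lower at an unadjusted p under 0.05, and smallest adjusted p 0.0715). The values below are therefore read by library.

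The locus with the largest rise in covered length was chr15:74702286-74726825, with 0 kb in both DMSO libraries and 24.3 and 23.3 kb with rosiglitazone. At 48 h it was covered over 23.3 kb in 1 library and 1.54 kb in the other, and with GW3965 at 24 h over 0 kb in both. The locus chr5:142592725-142610741, which contains a strong gained site named above, was covered over 0 and 0 kb under DMSO and 11.0 and 16.3 kb with rosiglitazone, and held no H3K27ac or PPARG site. The locus chr2:168861677-168916508 held 11 gained sites and was covered over 0.931 and 1.06 kb under DMSO, by peaks that did not overlap between the libraries, and 18.3 and 32.3 kb with rosiglitazone. With GW3965 this locus was covered over 0 and 24.8 kb at 24 h and 23.6 and 11.03 kb at 48 h, so that both GW3965 libraries at 48 h also lay above DMSO. The largest fall was chr5:1105406-1112491, from 5.31 and 5.54 kb under DMSO to 0 kb in both rosiglitazone libraries at 24 h. That locus held 1.23 and 3.24 kb at 48 h of rosiglitazone, and 3.07 and 0.983 kb with GW3965 at 24 h.

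Among loci with sites in both groups, which were chosen after their values were seen, chr9:19101857-19130344 was covered over 1.45 and 0.945 kb under DMSO and 15.9 and 14.8 kb after 24 h of rosiglitazone (log2 change 3.18, SE 0.26; limma adjusted p = 0.0272 over all loci and 0.0715 among loci with sites in both groups). Coverage there was 14.1 and 13.9 kb at 48 h, and 3.15 and 2.15 kb with GW3965 at 24 h. Its 4 gained sites included the strong site on chromosome 9 described above, and PPARG sites lay at its far end, as the map of called peaks shows. At chr7:134211801-134229152 coverage was 1.75 and 1.61 kb under DMSO and 8.93 and 10.4 kb with rosiglitazone, and the DMSO peaks lay within the wider rosiglitazone peaks at PPARG sites. The longest of these loci, chr8:121536457-121734156, was covered over 20.998 and 30.4 kb under DMSO, 176 and 183 kb after 24 h of rosiglitazone and 168 and 167 kb after 48 h. It held 5 JunD sites but no H3K27ac or PPARG site, and GW3965 covered 3.48 and 108 kb at 24 h and 104 and 51.6 kb at 48 h, the later pair both above DMSO. Falls were smaller: chr11:69705827-69715946 went from 3.62 and 3.32 kb to 0.597 and 1.04 kb.

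**Figure D5:**
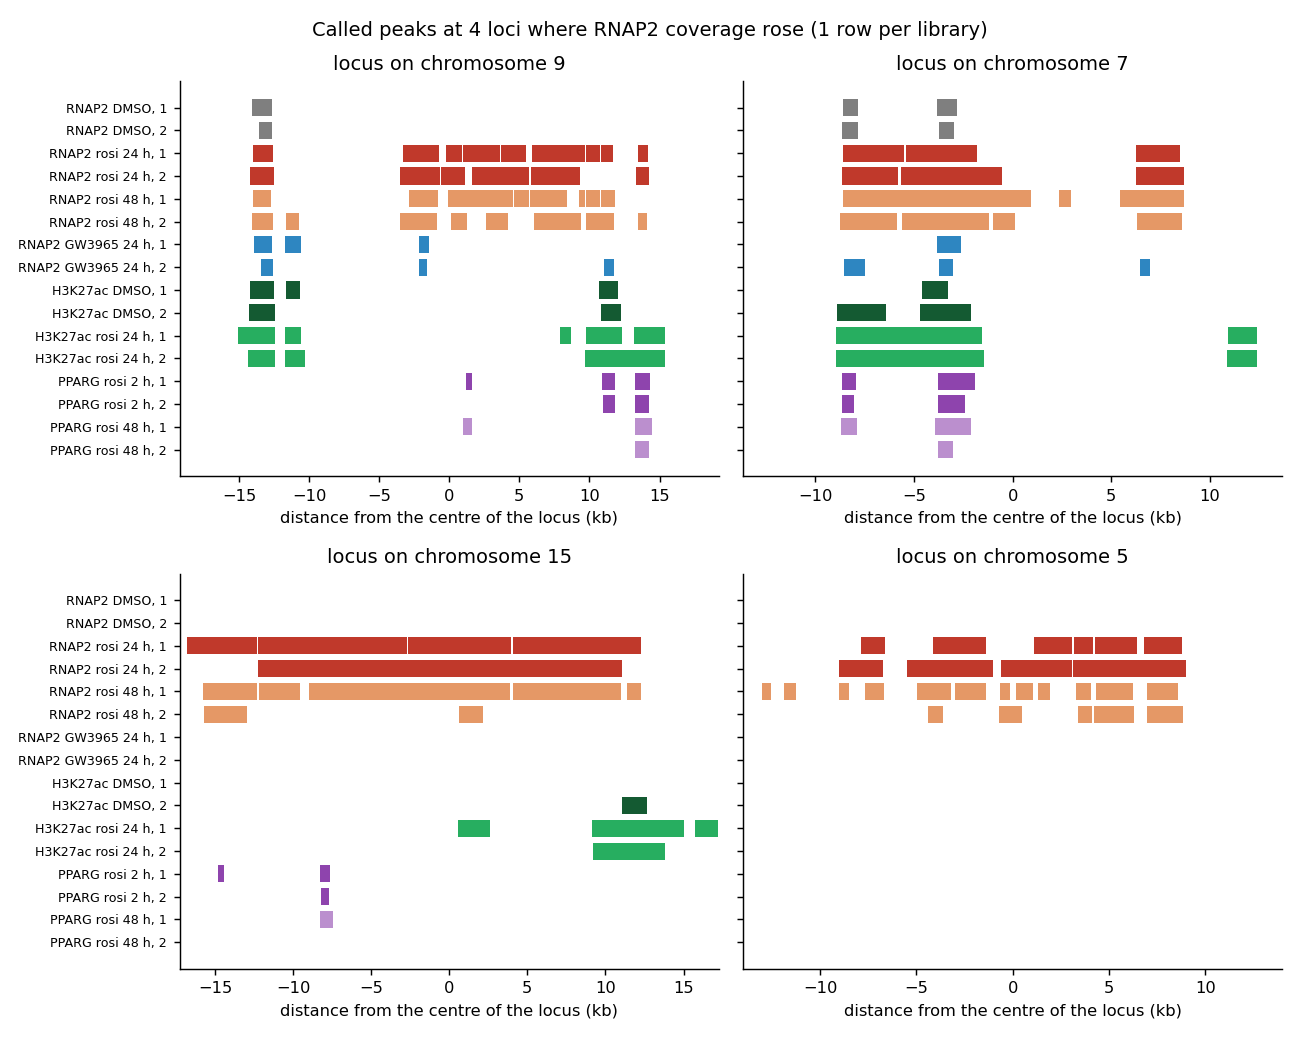
Called peaks of RNAP2, H3K27ac and PPARG in each library at 4 loci where RNAP2 coverage rose (x axis, distance from the centre of the locus in kb; 1 row per library). At the chromosome 9 locus the DMSO peaks cover 1.45 and 0.945 kb at one end and the rosiglitazone peaks also cover the interior, whereas the chromosome 5 locus has RNAP2 peaks with rosiglitazone and no H3K27ac or PPARG peaks.

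Finally, RNA from the same treatment and time was examined for the machinery of transcription and for genes known to respond to PPARG. Per library 30834003 to 40617171 reads were counted to genes. Over all 21781 genes tested, edgeR called 170 higher (0.78%) and 305 lower (1.4%) at an adjusted p under 0.01 and a change of at least 2-fold, and the adjusted p alone called 1266 higher (5.81%) and 1421 lower (6.52%). All 10 colon epithelium markers were present, at a summed 17757 to 19333 CPM (counts scaled to library size) under DMSO and 20472 to 21795 with rosiglitazone. Most of this was KRT8 and KRT18, at means of 9390 and 7151 CPM under DMSO. CDX1 had a mean of 3.40 CPM there, below the blood marker CD68 (10.1) and the fibroblast marker COL1A1 (4.39). The 4 blood markers summed to under 12 CPM and the 4 fibroblast markers to under 6 in every library. CD3E, COL1A2, COL3A1 and DCN were at 0 in all. These markers do not identify the cell line. The RNA values are per gene and were not joined to RNAP2 sites.

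Genes of the transcription machinery gave counts near the background of 0.78% higher and 1.4% lower over all genes. Of the 12 RNAP2 subunits on the list 11 were tested (POLR2A was not analysed here), and 0 passed both limits in edgeR or DESeq2, with 5 higher and 0 lower at an unadjusted p under 0.05 in edgeR. Of these, 3 were higher by the adjusted p alone, and all 3 encode subunits shared with the other nuclear RNA polymerases. The other shared subunits, POLR2H and POLR2K, did not pass (1.07-fold and 0.926-fold, edgeR adjusted p = 0.235 and 0.426). POLR2E was at 198, 196, 178 and 205 CPM under DMSO and 234, 237, 235 and 227 with rosiglitazone, so that the groups did not overlap (1.20-fold; edgeR adjusted p = 0.00297). POLR2F (1.25-fold; edgeR adjusted p = 0.00669) and POLR2L (1.16-fold; edgeR adjusted p = 0.00691) were similar in size. The subunits ranged from −0.11 to 0.33 in log2 change with a median of 0.10, where the median of all genes was −0.02. POLR2J has near-identical copies in the genome, among which reads could be split.

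Factors of initiation and elongation gave the same count. Of 27 pausing and elongation factors tested, 0 passed both limits in edgeR or DESeq2 (6 higher and 5 lower at an unadjusted p under 0.05 in edgeR), and 1 passed the adjusted p alone. This was ELL2, an elongation factor of the super elongation complex, at 12.5, 14.99, 15.7 and 12.7 CPM under DMSO and 7.54, 7.63, 6.72 and 8.33 with rosiglitazone (0.541-fold; edgeR adjusted p = 6.61e-07). Of 22 initiation and mediator genes 0 passed both limits in edgeR or DESeq2 (3 higher and 3 lower at an unadjusted p under 0.05) and 1, the mediator subunit MED23, was lower by the adjusted p alone (0.689-fold; edgeR adjusted p = 0.000129). Their medians were 0.04 and 0.01 in log2 change. Of 10 housekeeping genes 0 passed both limits by either tool (5 higher and 0 lower at an unadjusted p under 0.05), and the glycolytic enzyme ENO1 was higher by the adjusted p alone (edgeR adjusted p = 0.00652).

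Of 31 known PPARG targets tested, 12 were higher and 0 lower by both limits, against 0.78% and 1.4% of all genes, 22 were higher by the adjusted p alone, and the median log2 change was 0.56. The list was chosen with earlier results of these data known, so its counts are a description and not independent support. ANGPTL4, a secreted inhibitor of lipoprotein lipase, was at 0.440, 0.191, 0.893 and 0.837 CPM under DMSO and 21.1, 17.7, 21.4 and 18.8 with rosiglitazone, with no overlap between groups (log2 change 5.02, SE 0.27; edgeR adjusted p = 1.11e-10). FABP1, the fatty acid carrier of liver and gut, went from a mean of 0.934 ± 0.325 CPM (SD, n = 4) to 18.3 ± 3.66. FABP4, the fatty acid carrier of adipocytes, was at 0 CPM in all DMSO libraries and at 0.9996, 0.486, 0.907 and 0.969 CPM with rosiglitazone. A further 8 called targets rose between 2.21-fold (CIDEC, of the lipid droplet) and 6.89-fold (PLIN2, which coats lipid droplets), and included PDK4, which restrains pyruvate oxidation, at 5.99-fold.

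Intestinal epithelial genes moved in both directions, with 3 of 20 higher and 4 lower by both limits, against 0.78% and 1.4% of all genes. Their median log2 change was 0.01. This list was also chosen with earlier results of these data known, so its counts are a description. KRT20, a keratin of differentiated enterocytes, was at 266, 245, 252 and 257 CPM under DMSO and 647, 673, 656 and 670 with rosiglitazone (2.60-fold; edgeR adjusted p = 5.85e-13). The adhesion molecules CEACAM5 (2.37-fold) and CEACAM6 (2.07-fold) rose as well. The 4 that fell were NOX1, an epithelial NADPH oxidase (0.198-fold), ATOH1, the transcription factor of the secretory lineage (0.287-fold), CFTR, a chloride channel (0.332-fold), and MUC2, the secreted mucin (0.491-fold). MUC2 was the least firm of these, as its rosiglitazone libraries were at 28.4, 24.2, 48.7 and 31.9 CPM and its change was under 2-fold when DMSO replicate 2, rosiglitazone replicate 1 or rosiglitazone replicate 2 was left out.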

How the data were processed

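HT29 cells were profiled by single-end ChIP-seq and paired-end RNA-seq. Per the labels, the authors aligned ChIP-seq reads to hg19 with Bowtie and called peaks per library with MACS; the deposited score is 10 times −log10 of the peak's p-value (lowest 100). Software versions, ChIP-seq read depth, the RNA counting program and its strand setting were not given in the sources used. The deposited RNA values are raw counts per gene, made by the authors after TopHat alignment, with Cufflinks also named in the labels.

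Sites were merged peaks of both replicates overlapping by 1 bp. Scores and widths at shared sites, and log2(covered bp + 500) per locus, were tested with limma 3.58.1 (R 4.3.3), library medians set equal. RNA counts were tested with edgeR 4.0.16 quasi-likelihood, TMM and filterByExpr, over all 16 libraries at 24 h, 4 groups in 1 fit; DESeq2 1.42.0 was an alternative. Adjusted p-values are Benjamini-Hochberg over all features. Both pipelines were tested on simulated data.

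The comparison, the gene lists and the marker lists were chosen with earlier results of these data known. Named sites are the 4 with the highest lower score or largest change per class, called sites first; named genes are the 4 largest changes past the test per list and direction, with all RNAP2 subunits examined; 1 gene that the rule selects is not reported here. The replicate numbers did not pair the RNA libraries (correlations of deviations −0.046 to 0.079). Wilson intervals (95%) cover counting error only. Site sequences are not shown, as no genome of the build was used.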

Additional observations from a re-analysis of the deposited data

Results flagged for a closer look

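Among the 24 named genes, each with 4 libraries in both groups (48 groups in all), 3 groups had 1 library far from the other 3 by Dixon's ratio of the gap to the range, and chance alone flags about 1 group in 20. MED23 under DMSO had a ratio of 0.867, with 1 library at 21.3 CPM and the others at 25.8, 25.8 and 26.5. CEACAM6 with rosiglitazone had a ratio of 0.907, with 1 library at 82.4 CPM and the others at 89.1, 89.3 and 89.8. ATOH1 under DMSO had a ratio of 0.83, with 1 library at 6.37 CPM and the others at 4.88, 5.08 and 5.14. In each of these genes all rosiglitazone libraries lay on one side of all DMSO libraries.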

How the results depend on the processing

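Counts of gained and lost sites were 3189 and 3998 for peaks with scores of at least 200, and 2529 and 1822 for sites with no peak in the other group. The shares of gained sites with H3K27ac of rosiglitazone, lost sites with H3K27ac of DMSO, gained sites with PPARG and lost sites with PPARG were 49.2, 70.2, 37.1 and 26.5% at scores of at least 200, 35.8, 59.4, 31.4 and 20.8% with an equal number of peaks per library, 23.2, 44.8, 21.4 and 12.8% with no peak in the other group, and 40.5, 65.5 and 28.7% (the last share nearly unchanged) at sites of 1 to 2 kb, an alternative chosen after seeing the data. Widened and narrowed sites numbered 747 and 13 at scores of at least 200, 699 and 195 with scaled widths, and 387 and 5 at 2-fold. The cause of these differences was not tested.

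The score test called 0 sites without centring, 0 after quantile scaling, 6 with a trend and 0 with a floor. The width test called 96 without centring (93 wider, 3 narrower) and 19 with a trend. The locus test called 1368 with sites joined within 25 kb, 128 with loci of at least 2 kb, 0 with a pseudocount of 2000 bp, 0 without centring and, in an alternative chosen after seeing the data, 0 over loci with sites in both groups. With a replicate block the score, width and locus tests called 24, 24 and 0, and edgeR called 459 genes. Deviations of same-numbered ChIP-seq libraries correlated at −0.266 for scores and −0.207 for widths, and with the pairing crossed, also added later, the tests called 1, 318 and 0.

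Leaving out each of the 4 ChIP-seq libraries in turn gave 3562 to 11759 gained, 3633 to 11406 lost, 565 to 5324 widened and 26 to 1844 narrowed sites, shares of 25.6 to 27.5, 42.7 to 57.4, 16.4 to 24.99 and 12.9 to 17.2% in the order above, and 0 to 2361, 0 to 220 and 0 to 4309 calls in the score, width and locus tests, with the lone library of a group assumed to vary like the other group. The score and locus tests called 0 without either DMSO library, 2361 and 4309 without rosiglitazone replicate 1, and 584 and 3302 without replicate 2. The balance of locus calls, 1259 higher and 959 lower with all libraries, turned to 1544 higher and 2765 lower without rosiglitazone replicate 1 and 1306 higher and 1996 lower without replicate 2. Gained sites outnumbered lost ones without either rosiglitazone library, and lost sites outnumbered gained ones without either DMSO library. A group left with 1 library needed no second replicate for a site, which shifts these counts by definition. Narrowed sites outnumbered widened ones without rosiglitazone replicate 2. RNA calls were 411 to 468 when any library was left out, and 468 to 511 with RLE scaling, no filter, DESeq2 or the rosiglitazone and DMSO libraries alone. The unknown depth of the ChIP-seq libraries and the saturation of scores near 3100 limit every comparison of peaks.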
